A study of Mus musculus with 72 samples.

Results

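Loss of the nucleosome-binding proteins HMGN1 and HMGN2 was accompanied by SOX2 peaks at 2853 positions of the embryonic stem cell (ESC) genome that had no SOX2 peak in WT cells. These gained SOX2 sites were chosen by the following rule. The ESC SOX2 peaks of 2 WT and 2 DKO libraries were merged into 20747 sites, with an overlap of 1 bp enough to join peaks. A gained site was one that both DKO libraries and neither WT library called, and it was kept when no OCT4 site with the same pattern of calls overlapped it. Of the 3447 SOX2 sites called in both DKO libraries alone, 16.6% of all SOX2 sites, 594 were set aside because they overlapped a gained OCT4 site, and 2853 remained. WT cells carried Hmgn1+/+n2+/+ and DKO cells Hmgn1-/-n2-/-, both on the C57BL/6 background, so the DKO cells lacked both HMGN proteins from the start and no agent or time course was involved. SOX2, OCT4, NANOG, Klf4 and CTCF were each immunoprecipitated from ESCs in 2 replicates per genotype, which gave 20 peak lists. The study calls them biological replicates. Neither the labels nor the methods say whether they came from separate ESC lines or cultures, so p-values measure only the spread between these samples.

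SOX2 is an HMG-box transcription factor that bends DNA at a short A/T-rich motif, and OCT4 (Pou5f1) is a POU factor that reads the octamer. In ESCs the pair often occupies adjacent half-motifs of a composite element, NANOG joins them at many enhancers, and together they maintain pluripotency. Klf4 is a zinc finger pluripotency factor. CTCF is an insulator protein that binds a long motif of its own and served here as a factor outside the pluripotency group. HMGN proteins bind nucleosomes without preference for the DNA sequence and are found at acetylated, active chromatin.

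The sequences of the strongest gained sites show what the SOX2 summits lie on. Windows of 81 bases around the summit were read from the mm9 genome for the 4 gained sites with the highest mean −log10 q over the 2 DKO SOX2 libraries. Capitals mark the motifs searched: the SOX core (ACAATG or ACAAAG), the octamer (ATGCAAAT), the SOX-octamer composite (TTGTNATGC), an ESRRB motif (TCAAGGTCA) and a KLF motif (GGGTGTGGC), on either strand. The composite and the octamer overlap where both match.
Cntn5 site, chr9:11106393-11106473, plus strand: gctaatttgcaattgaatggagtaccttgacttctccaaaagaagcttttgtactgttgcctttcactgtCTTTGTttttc
Car2 site, chr3:15056969-15057049, minus strand: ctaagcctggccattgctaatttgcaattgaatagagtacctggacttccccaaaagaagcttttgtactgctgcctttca
Gas2l3 site, chr10:88933788-88933868, plus strand: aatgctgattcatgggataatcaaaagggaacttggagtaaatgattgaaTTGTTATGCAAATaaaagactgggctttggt
Ect2 site, chr3:26962848-26962928, plus strand: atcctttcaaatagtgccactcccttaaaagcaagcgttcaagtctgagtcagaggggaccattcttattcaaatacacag
The Cntn5 and Car2 windows are much alike once set on opposite strands. Slid without gaps along the sequence around the Car2 summit, on both strands, the Cntn5 window matched it best at 71 of 81 bases (87.7%), in a frame shifted from the bases shown, whereas no other pair of the 4 sites exceeded 39.5%. Words of 25 bases within 100 bp of these summits recurred in up to 101 places of the genome for Cntn5 and 162 for Car2. For Gas2l3 and Ect2 the highest number was 36 and 73. Among the next strongest sites it was 1301 at Tanc1, 162 at Kcnh5, 37444 at Aldh4a1, 4997 at Dppa2 and 161 at Il7. It was 1 at Gm1631 and Zfp362 and 2 at Nr5a2. The median word had 3 places at Car2 and 1 at the others. Words found in 20 or more places were thus common among the strongest sites. Over all gained sites, 602 of 2853 (21.1%) held such a word. The share was 22.7% of the SOX2 sites called in all 4 libraries and 21.0% of all SOX2 sites. Within the gained sites it was 18.7% in the weakest of 4 equal classes of SOX2 strength and 23.5% in the strongest. A SOX core stands near the end of the Cntn5 window. At Car2 a SOX core and an ESRRB motif lie outside the bases shown but within 100 bp of the summit. The Gas2l3 window carries a full composite element that runs into an octamer. The Ect2 window carries none of the 5 motifs.

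The next windows come from gained sites where WT cells had NANOG without OCT4, OCT4 without NANOG, or neither, and show the range of sequence among the classes described further on.
Zfp362 site, chr4:128492573-128492653, plus strand: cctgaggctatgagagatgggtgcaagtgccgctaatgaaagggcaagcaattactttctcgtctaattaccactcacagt
Tanc1 site, chr2:59536595-59536675, plus strand: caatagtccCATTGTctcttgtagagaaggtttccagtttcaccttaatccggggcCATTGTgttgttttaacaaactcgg
Pla2g1b site, chr5:115914936-115915016, plus strand: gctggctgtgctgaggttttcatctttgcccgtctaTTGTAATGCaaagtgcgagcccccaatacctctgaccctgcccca
Rarg site, chr15:102073788-102073868, plus strand: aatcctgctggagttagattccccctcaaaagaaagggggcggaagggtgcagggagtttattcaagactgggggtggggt
Extl1 site, chr4:133935543-133935623, plus strand: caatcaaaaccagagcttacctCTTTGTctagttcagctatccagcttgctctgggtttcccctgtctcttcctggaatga
1190005I06Rik site, chr8:123142197-123142277, plus strand: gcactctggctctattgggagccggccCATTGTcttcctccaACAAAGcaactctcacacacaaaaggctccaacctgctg
SOX cores are present at Tanc1, Extl1 and 1190005I06Rik, and a composite element at Pla2g1b. The Zfp362 and Rarg windows hold none of the 5 motifs within these 81 bases, although a SOX core lies within 100 bp of each summit.

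Gained sites were SOX2 sites of modest strength. In the peak lists strength is the fold enrichment of reads over local background at the summit, and confidence is the −log10 q of the peak caller. Because the rule itself used the SOX2 calls, these SOX2 values are a description and carry no test. Median fold enrichment at the gained sites was 5.84 in DKO replicate 1 and 6.07 in DKO replicate 2, with 5th to 95th percentiles of 3.78 to 9.49 and 3.81 to 9.82. The SOX2 sites called in all 4 libraries, 7694 in number, had medians of 10.5 and 11.1 in the same DKO libraries and 8.24 and 8.15 in the WT libraries. At those shared sites, too, the DKO medians were above the WT medians. Median −log10 q at the gained sites was 10.5 and 12.1, and 2746 of 2853 had a −log10 q of at least 4 in both DKO libraries, 1213 of at least 10 and 159 of at least 20.

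**Figure D1:**
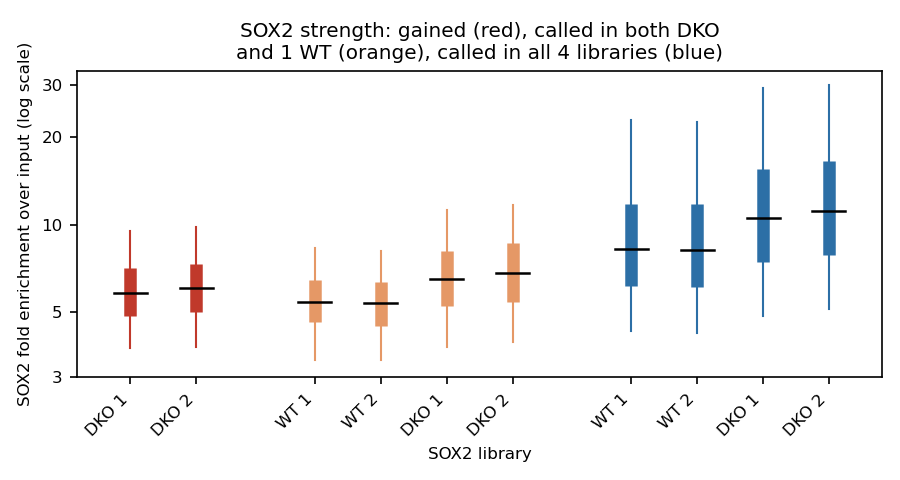
SOX2 fold enrichment over input (log axis) by library at gained SOX2 sites (red), at sites called in both DKO and exactly 1 WT library (orange) and at sites called in all 4 libraries (blue). Black lines are medians, thick bars the 25th to 75th percentiles and thin lines the 5th to 95th percentiles over sites. The gained sites, with medians of 5.84 and 6.07, lie below the shared sites, with DKO medians of 10.5 and 11.1.

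The boundary of the rule cut through a continuous range. The weakest gained site, in an intron of Sipa1l3 (chr7:30189104-30189398), had a −log10 q of 2.57 and 2.04 in the 2 DKO libraries. Just outside the rule lay 2444 sites called in both DKO libraries and exactly 1 WT library. Their median SOX2 fold enrichment was 6.49 and 6.82 in DKO, and 5.42 and 5.38 in WT replicates 1 and 2 where called. Their weakest WT peaks had a −log10 q of 2.06 and 2.0. The opposite pattern, a SOX2 peak in each WT library and none in DKO, was found at 122 sites. The WT SOX2 lists held 10324 and 10222 peaks and the DKO lists 16174 and 17144. When only the 10222 strongest peaks of each library were kept, 638 gained sites remained, 632 of the main 2853 (22.2%) among the sites they overlapped, so the number of gained sites depended on how far down each list was read. Without SOX2 DKO replicate 1 the number was 5326 and without DKO replicate 2 it was 4724. Background read depth could be solved from the lists of 3 libraries and was 1.5, 1.56 and 1.74 reads at its lowest in WT replicate 1, WT replicate 2 and DKO replicate 1. The depth of DKO replicate 2 could not be solved, and the part of read depth in the gain was not tested.

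The strongest gained site lay at chr9:11106272-11106658, 201658 bp upstream of Cntn5, a neuronal contactin. SOX2 fold enrichment there was 23.4 and 30.1 in the DKO libraries. The second lay 170583 bp downstream of the start of Car2, a carbonic anhydrase, with 12.1 and 15.9. The third was in an intron of the bile acid receptor gene Nr1h4, with the nearest start that of Gas2l3, a cytoskeletal linker (14.9 and 15). The fourth lay 89846 bp downstream of the start of Ect2, a gene of cytokinesis (9.93 and 13.8). Sites 5 to 12 were nearest to Gm1631, Zfp362, Nr5a2, Tanc1, Kcnh5, Aldh4a1, Dppa2 and Il7. Among these, Nr5a2 encodes a nuclear receptor of pluripotent cells, with its site 418306 bp upstream, and Dppa2 a pluripotency-associated chromatin protein, with its site 1466 bp upstream. All 12 were farther than 1000 bp from the nearest transcription start site (TSS), and 3 were intronic.

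Nearly every gained SOX2 site was a NANOG site already in WT cells. NANOG peaks covered 94.9% and 95.5% of the gained sites in the 2 WT libraries and 99.0% and 99.1% in the 2 DKO libraries. In both WT libraries NANOG was called at 2666 of 2853 sites (93.4%), in neither at 87 (3.05%). The share in both WT libraries was 93.4% over all SOX2 sites and 99.8% over sites called in all 4 SOX2 libraries, so the gained sites had the share of SOX2 sites in general, below that of the shared sites. At positions 5000 bp upstream and downstream of the gained sites it was 2.80% and 3.36%. The SOX2 summit lay within 50 bp of the WT NANOG summit at 2064 of the 2666 sites (77.4%), and the median offset from the NANOG summit of WT replicate 1 was 26 bp. The rise of the NANOG share from 95.2% ± 0.446 (SD, n = 2) in WT to 99.1% ± 0.0991 (SD, n = 2) in DKO was larger than the spread between replicates. Over all SOX2 sites the share also rose beyond that spread, from 94.8% and 95% to 97.7% and 97.9%, and the difference between the rises was not tested. The exact permutation test over libraries (two-sided) for the gained sites gave p = 0.33, the smallest value that 2 against 2 libraries allow.

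**Figure D2:**
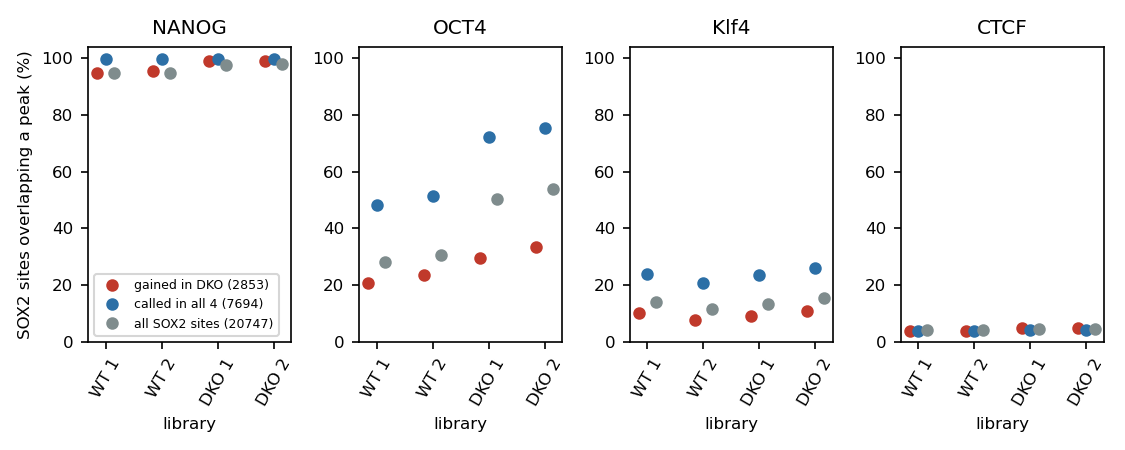
Percentage of SOX2 sites that overlap a NANOG, OCT4, Klf4 or CTCF peak, 1 point per library, for gained SOX2 sites (red), sites called in all 4 SOX2 libraries (blue) and all SOX2 sites (grey). The gained sites reach 94.9% to 99.1% for NANOG and 20.9% to 33.6% for OCT4, and the sites called in all 4 SOX2 libraries lie higher for both factors in each library.

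Few NANOG sites were themselves gained at these positions. Of the 2831 NANOG sites that overlapped a gained SOX2 site, 63 (2.23%) were called in both DKO and neither WT library, against 9.44% of all 79921 NANOG sites. At these positions NANOG was thus mostly called in WT as well. The same held for SOX2 sites in general: 3.05% of gained sites and 3.58% of all SOX2 sites had no NANOG peak in either WT library.

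OCT4 was present in WT cells at a minority of the gained sites. It was called at 20.9% and 23.4% of them in the 2 WT libraries, and at 523 of 2853 (18.3%) in both. Over all SOX2 sites the share in both WT libraries was 25.9%, and over sites called in all 4 SOX2 libraries 45.8%. In DKO cells OCT4 was called at 29.4% and 33.6% of the gained sites. That DKO share was held down by the rule, which had removed the 594 gained sites that overlapped a gained OCT4 site, and is not tested. With these 594 sites kept, 15.2% of 3447 gained sites had WT OCT4. Klf4 covered 9.99% and 7.82% of the gained sites in WT and 9.15% and 10.8% in DKO, and the libraries of the 2 genotypes overlapped (exact permutation test over libraries, two-sided, p = 0.667). CTCF covered 3.65% and 3.86% in WT and 4.70% and 4.80% in DKO, without overlap between the genotypes (exact permutation test, two-sided, p = 0.33). Over all SOX2 sites CTCF covered 3.99% and 4.09% in WT and 4.46% and 4.40% in DKO, also without overlap. The shares called in both WT libraries were low: Klf4 was called in both WT libraries at 17.4% of the sites called in all 4 SOX2 libraries and CTCF at 3.41%, against 5.85% and 3.36% of the gained sites.

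Grouped by what both WT libraries carried, 1959 gained sites (68.7%) had NANOG and no OCT4 peak, 500 (17.5%) had both factors, 9 (0.315%) had OCT4 and no NANOG peak and 78 (2.73%) had neither. The remaining 307 (10.8%) had a factor in a single WT library. Among SOX2 sites called in all 4 libraries the class with NANOG alone held 46.2% and the class with both factors 45.8%. Sites with both factors were thus the smaller share among gained sites. Median DKO fold enrichment was 6.23 at sites with both factors, 6.00 with NANOG alone, 5.10 with OCT4 alone and 5.68 with neither.

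Single sites show the classes. At the Cntn5 site both factors were present in WT, with NANOG fold enrichments of 10.3 and 12.2 and OCT4 fold enrichments of 9.36 and 12.6. At the site 9324 bp upstream of Zfp362, a zinc finger gene, NANOG was strong in WT (37.9 and 36.7) and OCT4 was called in none of the 4 libraries. The intronic site in Rarg, the gene of a retinoic acid receptor, had OCT4 in WT (10.9 and 12.5) and no WT NANOG peak, and NANOG fold enrichments of 6.45 and 5.94 in DKO. A site 1299 bp upstream of Pla2g1b, a secreted phospholipase gene, was of the same class, with OCT4 at 7.77 and 9.73 in WT, and so was a site in an intron of the ammonium transporter gene Rhbg (6.63 and 9.06). Of the sites with neither factor, the strongest lay 7110 bp upstream of Extl1, a glycosyltransferase gene. SOX2 there reached 9.28 and 10.2, and NANOG was called in DKO alone at 8.26 and 8.75. The next ones, in an intron of 1190005I06Rik and 15976 bp upstream of the RNA-editing enzyme gene Adarb1, had weak NANOG peaks in DKO, at 2.92 to 4.40.

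SOX2 was gained more often at strong than at weak NANOG sites. Of the 44142 NANOG sites called in both WT libraries, 12061 carried a WT SOX2 peak and 32081 did not, and 2627 of the latter (8.19%) carried a gained SOX2 site. Divided into 5 equal classes of WT NANOG fold enrichment, the share of sites that carried a gained SOX2 site, among those without a WT SOX2 peak, was 2.91%, 4.0%, 8.15%, 17.2% and 31.1% from the weakest class to the strongest. The share with a WT SOX2 peak ran in the same order, from 1.66% to 85.1%. The strongest class was therefore nearly filled in WT, with 1313 of 8829 sites still free, and 408 of these carried a gained site. Median WT NANOG fold enrichment at the gained sites was 11 and 10.8, against 27.8 and 27.3 at sites called in all 4 SOX2 libraries. It was lower also in bands of similar SOX2 strength. Between the lowest mean DKO −log10 q and the quartiles of the gained sites (2.31, 8.77, 11.4 and 15.2), the median in WT replicate 1 was 9.99, 10.6 and 11.4 at gained sites, and 13.8, 16.1 and 17.1 at sites called in both DKO and at least 1 WT library. WT OCT4 was called at 14.0%, 16.4% and 17.8% of the gained sites in these bands and at 23.1%, 20.8% and 23.4% of the others. Above 15.2 the sites called also in WT reach much greater SOX2 strength, and no comparison is made.

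**Figure D3:**
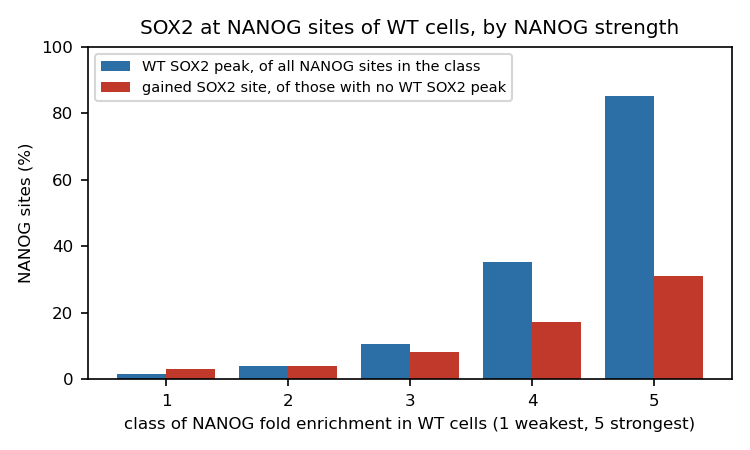
SOX2 at the 44142 NANOG sites called in both WT libraries, in 5 equal classes of their mean WT fold enrichment (x axis). Blue bars give the percentage with a SOX2 peak in WT cells, red bars the percentage of the remaining sites that carry a gained SOX2 site. Red bars run from 2.91% in the weakest class to 31.1% in the strongest.

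NANOG strength at the gained sites was higher in DKO than in WT cells. Over the 2654 NANOG sites that overlapped a gained SOX2 site and were called in all 4 NANOG libraries, median fold enrichment was 11.2 and 11 in WT and 14.4 and 14.3 in DKO. The DKO medians were both above the WT medians. Over all 39762 NANOG sites called in all 4 libraries the medians were 9.65 and 9.61 in WT and 9.94 and 9.96 in DKO, and at sites with SOX2 in all 4 libraries 27.8 and 27.3 against 27.3 and 27. On the log2 scale, with each library centred on its median over the sites tested, the median change from WT to DKO was 0.32 at the gained sites (quartiles −0.03 and 0.69), −0.10 at sites with SOX2 in all 4 libraries and −0.03 over all sites tested, and the change was positive at 72.9%, 42.8% and 47.9% of them.

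The test was limma's moderated test, fitted over all 39762 NANOG sites with Benjamini-Hochberg adjustment at 0.05. It called 736 of the 2654 sites (27.7%) higher in DKO and 80 (3.01%) lower. Over all sites tested the background was 11.5% higher and 12.9% lower. These calls rested on the DKO pair: without DKO NANOG replicate 1, or without DKO NANOG replicate 2, limma called 0 sites in either direction, at the gained sites and over all 39762. At an unadjusted p under 0.05 there were then 944 and 947 of the 2654 sites in either direction (35.6% and 35.7%), against 29.5% and 29.8% of all sites, and the median change was 0.31 and 0.32. The NANOG libraries took no part in the choice of the sites, but they come from cells of the same genotypes. Which input library each list was called against is not given in the sources used here, and the part of a shared input in these values was not tested.

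**Figure D4:**
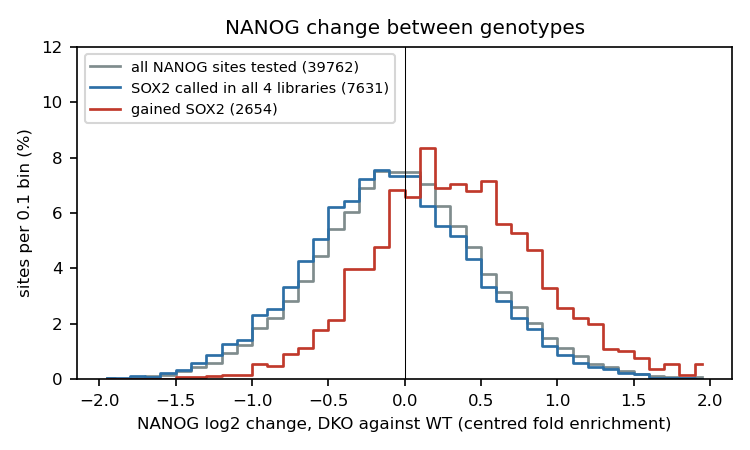
Distribution of the NANOG log2 change from WT to DKO (centred fold enrichment, in bins of 0.1, with changes beyond 2 placed in the outermost bins) over all NANOG sites tested (grey), sites with SOX2 in all 4 libraries (blue) and gained SOX2 sites (red). The gained sites are shifted to the right, with a median of 0.32 against −0.03 over all sites.

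The higher share was present in every class of NANOG level. In 5 equal classes of mean NANOG level over all tested sites, 32.7%, 37.6%, 30%, 26.3% and 19.9% of the gained sites were called higher, from the weakest class to the strongest, against 9.83%, 11.3%, 12.2%, 12.3% and 11.7% of all sites in the same classes. It was also present with and without WT OCT4: 152 of 498 NANOG sites (30.5%) were called higher where WT cells carried both factors and 523 of 1950 (26.8%) where they carried NANOG alone, and the median change was 0.31 in both. Counted over gained SOX2 sites, the share called higher ran with SOX2 strength in 4 equal classes of mean DKO −log10 q. It was 18.4%, 23.9%, 27.8% and 40.3% from the weakest class to the strongest, with median changes of 0.16, 0.27, 0.32 and 0.51. These classes reuse the DKO SOX2 values that chose the sites, so their order is a description and carries no test. The share called higher was 26.8% at gained sites with a SOX core and 29.3% at those without. At the 594 gained sites set aside for their gained OCT4 site the NANOG values were alike, with 167 of 558 (29.9%) called higher and a median change of 0.34. The 122 sites with SOX2 in WT alone went the other way: of 115 tested, 0 were called higher and 66 (57.4%) lower, with a median change of −0.81.

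The largest NANOG changes belonged to 3 sites. At chr2:26050236-26050485, 11743 bp downstream of the start of the LIM homeobox gene Lhx3, NANOG fold enrichment was 5.85 and 5.21 in WT and 25.4 and 27.7 in DKO, a log2 change of 2.22 ± 0.17 (SE, limma adjusted p = 5.63e-03). At the Cntn5 site it was 10.3 and 12.2 in WT and 50.7 and 50.4 in DKO, with a log2 change of 2.13 ± 0.18 (SE, limma adjusted p = 5.63e-03). In an intron of Apbb1, which encodes an adaptor of the amyloid precursor protein, it was 4.39 and 6.35 in WT and 23.8 and 23.9 in DKO (log2 change of 2.13 ± 0.22, SE, limma adjusted p = 5.63e-03). At all 3 sites the DKO values were well above both WT values.

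NANOG was called lower at 80 sites where SOX2 was gained, a count that was 162 and 153 when the sites were chosen without SOX2 WT replicate 1 or 2, and 215 and 164 without SOX2 DKO replicate 1 or 2. The largest fall was at chr2:14439952-14440195, upstream of the calcium channel gene Cacnb2, where NANOG fold enrichment was 29.6 and 26.0 in WT and 10.9 and 9.70 in DKO (log2 change −1.48 ± 0.18, SE, limma adjusted p = 5.63e-03). The next was the weakest gained site, in Sipa1l3, with 21.9 and 25.1 in WT and 9.20 and 8.81 in DKO. The third lay upstream of Klhl6, a gene of B cell maturation (13.5 and 14.5 against 5.64 and 5.85). SOX2 at these 3 sites was weak in DKO, with fold enrichments of 2.27 to 4.52.

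**Figure D5:**
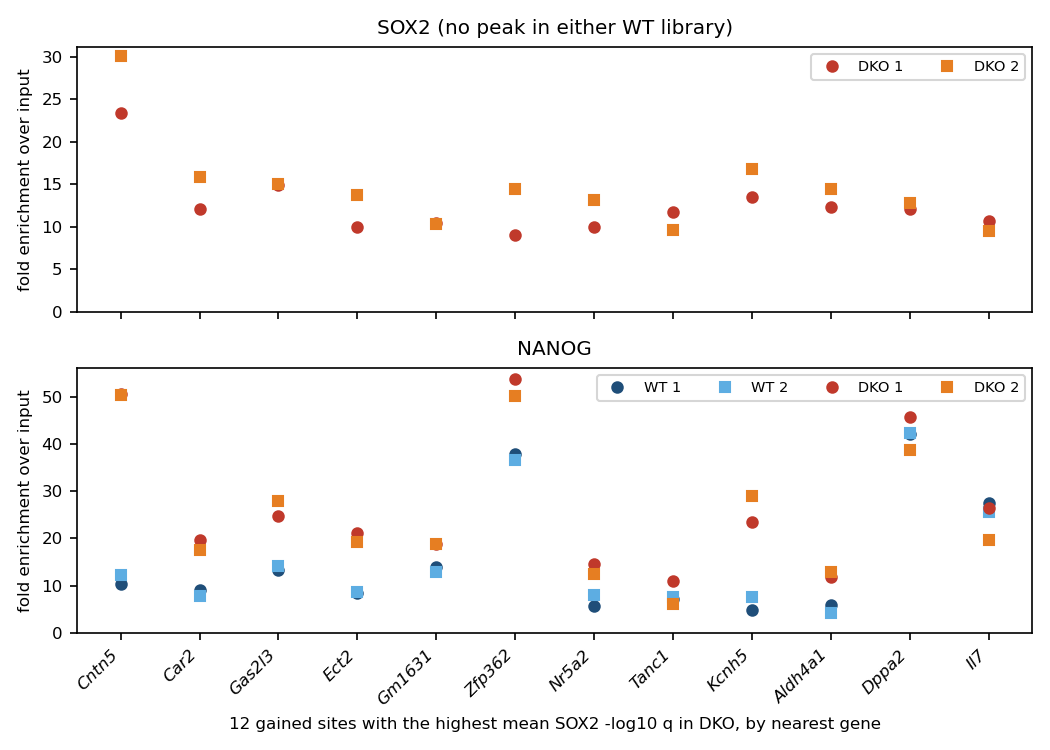
Fold enrichment over input of SOX2 (top, DKO libraries alone, as no WT library called these sites) and NANOG (bottom, all 4 libraries) at the 12 gained sites with the highest mean SOX2 −log10 q, named by nearest gene. NANOG in DKO exceeds WT most at Cntn5 and Kcnh5 and overlaps it at Dppa2, Il7 and Tanc1.

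Of the 12 strongest gained sites, chosen by the SOX2 values that the rule used, NANOG was called higher at 7, beside 40.3% of the strongest class, 27.7% of all gained sites tested and 11.5% of all NANOG sites. At the site 367620 bp downstream of the start of the potassium channel gene Kcnh5 it was 4.83 and 7.61 in WT and 23.5 and 29.0 in DKO. At the intronic site of Aldh4a1, a gene of proline breakdown, it was 5.93 and 4.16 in WT and 11.9 and 12.8 in DKO. The site near Dppa2 had high NANOG in every library, 42.3 and 42.4 in WT and 45.9 and 38.8 in DKO, with a log2 change of −0.05 ± 0.18 (SE, limma adjusted p = 0.855).

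At the gained sites, the median changes of OCT4, Klf4 and CTCF lay nearer to those of all their sites than that of NANOG did. OCT4 could be tested at 535 OCT4 sites that overlapped a gained SOX2 site. Their median fold enrichment was 10.9 and 11.7 in WT and 22.5 and 24.6 in DKO. That of all 9434 OCT4 sites tested was 11.7 and 12.4 against 22.5 and 24.5. OCT4 enrichment was thus higher in DKO at most sites of the list, with a median shift of 0.93 on the log2 scale. The largest rises relative to that shift were in an intron of Nudt3 (8.65 and 7.57 in WT, 37.2 and 37.4 in DKO) and near Zfp64 (5.95 and 5.95 in WT, 27.1 and 26.8 in DKO). The largest falls relative to it were near Amd2 (8.32 and 10.4 in WT, 5.24 and 6.91 in DKO) and Mettl4 (26.2 and 24.4 in WT, 19.2 and 18.5 in DKO). Relative to that shift the median change at the gained sites was 0.01, and limma called 105 (19.6%) higher and 83 (15.5%) lower, against 15.9% and 20% of all OCT4 sites. Without centring the split was 477 higher and 2 lower, against 86.3% of all OCT4 sites called higher. DKO OCT4 calls had entered the choice of the members, and these values describe the sites that remained. At sites with SOX2 in all 4 libraries the centred median change was 0.16. Without OCT4 DKO replicate 1 or 2 the centred calls were 51 and 50 higher, and 43 and 47 lower.

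Klf4 was tested at 121 sites and limma called 4 (3.31%) higher and 2 (1.65%) lower, against 3.90% and 3.33% of all 2310 Klf4 sites. The largest of these changes was upstream of Etaa1, a gene of the replication stress response, where Klf4 fold enrichment was 4.35 and 3.89 in WT and 14.8 and 10.8 in DKO (log2 change 1.70 ± 0.27, SE, limma adjusted p = 2.24e-04). Klf4 was called higher also in introns of Cuedc1 (4.67 and 6.10 in WT, 13.3 and 12.7 in DKO) and of Padi4, the gene of a histone-citrullinating enzyme (5.58 and 8.54 in WT, 15.8 and 13.9 in DKO). It was called lower in an intron of Dsg2 (10.2 and 9.38 in WT, 3.86 and 3.97 in DKO) and near Gxylt1 (14.4 and 16.3 in WT, 8.49 and 7.45 in DKO). The calls fell to 2 higher without Klf4 DKO replicate 1 and to 1 lower without Klf4 DKO replicate 2. CTCF was tested at 113 sites, with 32 (28.3%) called higher and 20 (17.7%) lower by limma, against 21.0% and 23.6% of all 56473 CTCF sites, and the median change was 0.13. In an intron of Ncor1, the gene of a nuclear receptor corepressor, CTCF fold enrichment was 8.99 and 7.70 in WT and 28.9 and 27.1 in DKO. In an intron of Vezf1, a zinc finger gene, it was 8.21 and 7.02 in WT and 3.58 and 3.91 in DKO. Without CTCF DKO replicate 1 or 2 the calls were 19 and 20 higher and 9 and 11 lower, and without WT replicate 1 or 2, 11 and 8 were lower.

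The gained sites held the SOX core nearly as often as other SOX2 sites, and composite elements at a low share that depended on the sites they were set beside. A SOX core stood within 100 bp of the summit at 1685 of 2853 gained sites (59.1%), at 65.3% of sites called in all 4 SOX2 libraries and at 61.2% of all SOX2 sites. Windows of the same length 5000 bp away from the gained sites held it in 26.4%. The SOX-octamer composite was found at 115 gained sites (4.03%), against 9.38% of the sites called in all 4 libraries, 6.38% of all SOX2 sites and 0.596% of the distant windows. The sites called in all 4 libraries were much stronger, and the rule had removed 594 gained sites of which 7.41% held a composite. The octamer was found at 5.89%, 7.67% and 6.40% of these groups of sites. Among gained sites the composite was present at 8.60% of those with NANOG and OCT4 in WT and at 2.35% of those with NANOG alone, while the SOX core was present at 47.8% and 62.1%. In the 3 bands of similar SOX2 strength the SOX core share was 54.7%, 60.4% and 59.6% at gained sites, and 58.3%, 61% and 58.9% at sites called also in WT. The composite share in these bands was 3.79%, 3.09% and 4.91% at gained sites, and 3.40%, 5.16% and 5.33% at the others, so at similar strength it was not lower throughout. SOX cores were concentrated at the summit, with 12.4 and 12.3 matches per 100 gained sites in the 20 bp bins on its left and right against 2.73 and 2.80 in the bins 490 bp away. A match describes the sequence and does not show binding. ESRRB and KLF motifs stood at 2.17% and 1.72% of gained sites and at 2.19% and 1.47% of all SOX2 sites. The distant windows held them in 0.596% and 0.403%. The median G and C content within 100 bp was 45.8% at gained sites and 44.3% at sites called in all 4 libraries.

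Gained sites lay mostly away from promoters, as SOX2 sites in general did. Of 2853, 111 (3.89%) lay within 1000 bp of a protein-coding TSS, against 3.12% of sites called in all 4 libraries and 4.28% of all SOX2 sites. The median distance to a TSS was 26811 bp. Summits fell in introns at 1213 sites (42.5%), between genes at 1586 (55.6%), in untranslated regions at 38 and in coding exons at 16. The nearest SOX2 site called in both WT libraries was a median of 67502 bp away, and 267 gained sites (9.36%) had such a site within 5000 bp. Sites called in all 4 libraries had their nearest neighbour of this kind at a median of 62861 bp, with 12.4% of them within 5000 bp. The gained sites were a median of 271 bp wide, against 399 bp.

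The strongest gained site near a promoter lay in an intron of Phkg1 and 794 bp upstream of Chchd2, a mitochondrial gene, with SOX2 at 12.5 and 7.66 in DKO. The next was 447 bp inside Ctbp2, the gene of a corepressor, with SOX2 at 8.76 and 10.7, NANOG at 17.0 and 21.7 in WT and 43.9 and 40.4 in DKO. The third was 125 bp upstream of a start of Lrrc49, with SOX2 at 13.8 and 8.51 and NANOG at 14.3 and 14.6 in WT and 27.3 and 28.9 in DKO. NANOG was called higher in DKO at all 3 (limma adjusted p = 0.0443, 0.0101 and 0.0110), which were picked for SOX2 strength. Over all gained sites near a TSS it was called higher at 27 of 91 (29.7%), against 27.7% of those farther away and 11.5% of all NANOG sites.

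Genes of pluripotency often had a gained site nearby. Within 50 kb of a TSS, 12 of 26 genes of naive and core pluripotency had a gained SOX2 site (46.2%), against 3149 of 22232 protein-coding genes (14.2%). These genes also had SOX2 in WT cells more often, at 22 of 26 (84.6%) against 30.2% of all genes, and no test was made of the list. The Sox2 gene itself was the closest. A gained site at chr3:34548821-34549101 had its summit 17 bp downstream of the TSS, in the 5' untranslated region, with SOX2 fold enrichments of 5.25 and 4.92 in DKO and no WT peak on the gene. NANOG there was 7.56 and 9.34 in WT and 17.3 and 19.3 in DKO, a log2 change of 1.08 ± 0.19 (SE, limma adjusted p = 0.00982), while 5 SOX2 sites of WT cells lay within 50 kb. The next were Stat3, the transducer of LIF signalling, with a site 208 bp upstream and no WT SOX2 site within 50 kb, and Dppa5a, with a site 2109 bp away. At the Stat3 site SOX2 was 3.83 and 4.31 in DKO and NANOG rose from 5.61 and 4.81 to 12 and 10.1 (limma adjusted p = 0.0105), and at the Dppa5a site from 4.94 and 5.21 to 8.31 and 7.59 (limma adjusted p = 0.0404). Pou5f1, Nanog, Klf4, Esrrb, Tbx3, Tcfcp2l1, Prdm14, Dppa4 and Fgf4 also had a gained site, 7033 to 37433 bp from a TSS. Esrrb, the gene of an orphan nuclear receptor of naive cells, had 3 of them.

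The signalling lists ranged more widely. Of 17 genes of FGF and ERK signalling, the pathway that drives exit from the naive state, 7 had a gained site within 50 kb (41.2%), with 13 (76.5%) near a WT SOX2 site. The site of Etv5, an ETS factor induced by this pathway, was 434 bp downstream of its TSS, with SOX2 at 4.64 and 5.92 and NANOG at 10.5 and 12.6 in WT and 11.2 and 12.6 in DKO. Those of Etv4 and Spry2, a feedback inhibitor, lay 2320 and 4015 bp upstream. At the Etv4 site OCT4 was strong in WT, at 29.4 and 38.6. No NANOG change was called at these 3 sites (limma adjusted p = 0.993, 0.117 and 0.474 for Etv5, Etv4 and Spry2). Of 20 genes of BMP, NODAL and TGF-beta signalling 4 had a gained site and 13 (65.0%) a WT SOX2 site, the closest gained site lying 1876 bp upstream of Nodal. NANOG at the Nodal site was 23.3 and 21.3 in WT and 14.5 and 14.5 in DKO, a log2 change of −0.67 ± 0.17 (SE, limma adjusted p = 0.0281), and OCT4 was 46.9 and 42.0 in WT. NANOG was present in all 4 libraries at the sites in introns of the receptor gene Bmpr1a and the signal transducer gene Smad3, and limma called no change there. Of 21 genes of WNT signalling 3 had a gained site (14.3%, beside 14.2% of all genes), with 11 (52.4%) near a WT SOX2 site. They were Lef1, Tcf7l1 and Tcf7l2, all transcription factors of the pathway, 31626 to 47830 bp away. At the Tcf7l1 site NANOG rose from 19.9 and 16.8 to 35.1 and 30.6 (limma adjusted p = 0.0214). At the Lef1 and Tcf7l2 sites no change was called, with log2 changes of 0.13 and 0.17 (limma adjusted p = 0.639 and 0.556).

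Among lists of differentiation, 4 of 15 genes of formative and primed pluripotency (26.7%), 5 of 26 neural genes (19.2%), 3 of 11 trophectoderm genes (27.3%) and 2 of 19 genes of mesoderm and endoderm (10.5%) had a gained site within 50 kb, beside the 14.2% of all genes. The same lists had a WT SOX2 site at 73.3%, 42.3%, 54.5% and 31.6% of their genes, beside 30.2% of all genes. The gene lists overlap, so the same gained sites enter several of these shares. Lef1 was counted here and among WNT genes, and Etv4 and Fgfr2 here and among FGF genes. Fgf4 was counted among pluripotency and FGF genes. Zic2 and Zic5, neighbouring zinc finger genes, shared a site 5213 bp downstream of the Zic2 TSS, with SOX2 at 6.41 and 7.96 and NANOG at 10 and 9.92 in WT and 22.6 and 24.2 in DKO (limma adjusted p = 0.00625). The neural genes Pou3f2 and Neurog2 had a site 9233 and 19191 bp from their TSS and no WT SOX2 site within 50 kb. At the Neurog2 site SOX2 was 9.12 and 11, and WT cells had both NANOG and OCT4. In an intron of Meis2, a homeobox gene, NANOG rose from 7.26 and 5.57 to 12.5 and 15.5 (limma adjusted p = 0.0124), while at the Pou3f2 and Neurog2 sites no change was called, with log2 changes of 0.44 and 0.46 (limma adjusted p = 0.136 and 0.131). Foxa2, a pioneer factor of endoderm, and Pdgfra, a receptor of primitive endoderm, were the members of their list with a gained site, and no NANOG change was called at either (limma adjusted p = 0.949 and 0.114). The trophectoderm regulators Gata3 and Gata2 had a gained site 4414 and 16578 bp from their TSS, and Fgfr2 8097 bp. The Gata3 site lies in a coding exon of the neighbouring gene 4930412O13Rik. NANOG was called higher by limma at the Gata3 site (11.1 and 12.6 in WT, 20.2 and 18.7 in DKO) and lower at the Gata2 site (29.0 and 25.4 in WT, 17.2 and 16.4 in DKO), and no change was called at the Fgfr2 site (limma adjusted p = 0.319).

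Of 24 chromatin genes, 6 had a gained site within 50 kb (25%), beside 14.2% of all genes, and 13 (54.2%) had a WT SOX2 site, beside 30.2%. For Ezh2, Hmgn5, Hmgb1, Eed, Jarid2 and Hmga1 the closest lay 866 to 46409 bp from a TSS. Hmgn5 is the X-linked relative of the deleted genes. Its site, 1684 bp upstream, had SOX2 at 11.3 and 13.3 in DKO, NANOG at 13.7 and 13.9 in WT and 35.8 and 30.6 in DKO (log2 change 1.21 ± 0.18, SE, limma adjusted p = 0.00650) and OCT4 at 10.4 and 8.68 in WT and 19.1 and 20.8 in DKO. At the site 866 bp inside Ezh2, the methyltransferase of Polycomb complex 2, NANOG rose from 6.92 and 6.75 to 11.3 and 15.2 (limma adjusted p = 0.0193), and at the Hmgb1 site no change was called (limma adjusted p = 0.821). Jarid2, a cofactor of the same complex, was the nearest gene of 5 gained sites. The genes with the most were Hs6st1 with 7 and Meis1 with 6, and 1966 of the genes with a nearest gained site had a single one. These last counts were chosen after their values were seen.

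Over the 45 gained sites named by strength, class, promoter or gene list, NANOG was called higher at 19, lower at 2 and neither at 18, and 6 had no NANOG site called in all 4 libraries. Over all gained sites the shares were 27.7% higher and 3.01% lower, and over all NANOG sites 11.5% and 12.9%. Many of the named sites were picked for SOX2 strength, and in the strongest class of gained sites 40.3% were called higher. As checks of the labels, all 10 markers of ESCs had a WT SOX2, NANOG and OCT4 site within 50 kb, whereas 1 of 10 fibroblast markers and 4 of 10 B cell markers had a WT SOX2 site. OCT4 sites lay near 4 and 6 of these and NANOG sites near 9 and 8, so NANOG did not set the ESC markers apart. A gained SOX2 site lay within 50 kb of 6 ESC, 0 fibroblast and 2 B cell markers. Within 1000 bp of the Hmgn1 and Hmgn2 genes the ESC lists held no peak but 1 for NANOG, in WT replicate 2, so they cannot show the deletion.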

How the data were processed

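ChIP-seq peak lists of ESCs were used for 5 antibodies in WT and DKO cells, 2 replicates each, together with 4 lists of H3K27ac in embryonic fibroblasts (MEFs). The authors trimmed reads with CutAdapt (1.16 in the submitters' notes), mapped them to mm9 with BWA, marked duplicates with Picard, removed blacklisted regions and called peaks for each library against input with MACS2 2.1.1.20160309. The deposited fold enrichment is the authors' ratio of summit pileup to local background, and −log10 p and −log10 q were deposited as MACS2 gave them. The lists used end at a q of 0.01. The study's methods state mapped reads for the series together, with no total for each library, and fold enrichment carries no counting interval here.

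The members and gene lists were chosen with earlier results of these data known. Peaks were merged at 1 bp overlap in Python 3.11.15, and the peak with the highest −log10 q represented a library at a site. limma 3.58.1 (R 4.3.3) fitted log2 fold enrichment, centred per library, over sites called in all 4 libraries, without covariates, and adjusted p-values by the Benjamini-Hochberg method at 0.05. It was tested on simulated data. Gene positions came from GENCODE vM1 on NCBIM37 (mm9), read with pysam 0.24.0. A site's gene was that of the nearest protein-coding TSS. Stacked reads were solved as the whole number that gives both the fold enrichment and the −log10 p (tolerance 0.0005). Sites were named by rule: the 12 with the highest mean −log10 q, the top 3 of each WT class and of promoters, the 3 nearest genes of each list, and the 3 largest changes of each antibody in each direction, which are printed in part. Same-numbered replicates did not deviate together (r from −0.00291 to 0.0213 over sites), so replicates were not paired.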

Additional observations from a re-analysis of the deposited data

How the results depend on the processing

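Of the main values under the alternatives tried, 102 were counted as unchanged and 52 were not. Counts had to stay within 1.5 times, WT shares within 1 SD, and differences of peak shares had to keep their sign. For peak shares this was partly fixed in advance: the replicate block cannot change the difference, and a difference of 0 was counted as unchanged. No difference of peak shares changed sign. Counts were compared by size alone, which cannot show a change of direction at single sites. Without centring, OCT4 sites called lower fell from 83 to 2 and those called higher rose from 105 to 477. The number of gained sites was 638 with the same number of top peaks from each SOX2 library, and 3824 to 5326 with a SOX2 library left out (5326 and 4724 without DKO replicates 1 and 2), since fewer libraries then had to agree. Scaling DKO replicate 1 to the depth of WT replicate 1, chosen after seeing the data, left 2830, but it reuses the values that chose the sites and does not show whether the WT libraries were deep enough to call them.

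The share with WT NANOG was 97% with a peak in either WT library, 92.7% with the SOX2 summit inside both peaks, 94.1% at a fold enrichment of at least 4, 96.6% with equal numbers of top peaks, and 87.2% to 95% with a SOX2 library left out. The share with WT OCT4 was 26.0% with a peak in either WT library, 25.7% with equal numbers of top peaks, 15.2% with no exclusion by OCT4, and 14.9% to 21.3% with a SOX2 library left out. The share with a SOX core was 43.5% within 50 bp, and 9.29% lay within 2500 bp of a TSS.

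NANOG sites called higher numbered 266 of 615 (43.3%) with equal numbers of top SOX2 peaks and 0 to 593 with a NANOG library left out, or 879 to 1059 with a SOX2 library left out. Those called lower numbered 127 with a trended prior, 50 at a SOX2 fold enrichment of at least 4, 4 with equal numbers of top peaks, 0 to 65 with a NANOG library left out and 153 to 215 with a SOX2 library left out. The median NANOG change was 0.23 to 0.53 in all settings. The difference of the NANOG peak share was 1.65 points with equal numbers of top peaks and 2.96 to 6.51 in all other settings. With a library left out, it was 3.54 to 4.17 for NANOG, 0 to 2.17 for Klf4 and 0.894 to 1.10 for CTCF.

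Klf4 sites called higher were 2 with sites called in at least 3 libraries and 2 to 4 with a library left out, and lower 1 without centring, with quantile normalisation or with at least 3 libraries and 1 to 3 with a library left out. CTCF sites called higher were 19 to 25 and lower 8 to 11 with a library left out. OCT4 sites called higher were 477 without centring, 188 with at least 3 libraries and 50 to 87 with a library left out, and lower 2, 43, 48 with quantile normalisation, and 43 to 66. The causes were not tested.

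The replicates share only a number. With the replicate block, NANOG sites were called higher at 724 and lower at 80, Klf4 at 3 and 1, CTCF at 29 and 18 and OCT4 at 108 and 89, and the peak share differences of 3.86, 1.09 and 0.999 points for NANOG, Klf4 and CTCF had exact permutation p of 0.50, 1.0 and 0.50, so the block moved 1 count by over 1.5 times, the Klf4 sites called lower.

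Peak lists limit these results: SOX2 or NANOG below the caller's threshold is not in the lists, so the absence of a peak is not the absence of the factor. With 2 libraries per genotype no permutation over libraries can pass 0.05.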

Other observations

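Gained SOX2 sites were compared with H3K27ac, a mark of active promoters and enhancers, in MEFs, a cell type without SOX2-driven pluripotency. MEF H3K27ac peaks covered 9.18% and 8.73% of the gained sites in WT and 8.87% and 8.83% in DKO MEFs, and the libraries of the 2 genotypes overlapped. In both WT libraries it was 218 of 2853 sites (7.64%), against 5.98% of the SOX2 sites called in all 4 ESC libraries and 6.96% of all SOX2 sites.

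The gained sites were spread over the genome. They made up between 12% of the SOX2 sites of chromosome 6 and 16.8% of those of chromosome 16, with 12.4% on the X chromosome. Gained sites were a median of 206849 bp from the next gained site, and 103 of 2853 (3.61%) had another within 5000 bp.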
